A study of Rattus norvegicus with 40 samples.

Results

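Notch signalling genes were followed in the livers of rats given the carcinogen diethylnitrosamine (DEN). The 10 genes were chosen by symbol: the receptors Notch1, Notch2, Notch3 and Notch4, the ligands Jag1, Jag2 and Dll4, and the target genes Hes1, Hey1 and Heyl. Of these, 9 had a row among the 17337 genes of the count files, and Jag2 was not analysed here. All rats were male Fischer 344 rats, 7 weeks old at the start, and DEN was injected into the abdomen each week at 50 mg/kg. Non-tumoral (NT) liver was taken after 8 weeks of DEN, after 14 weeks of DEN, and at 20 weeks, when 14 weeks of DEN had been followed by 6 weeks without it. At 14 and 20 weeks 2 tumor nodules (T) were also taken from each DEN-treated rat. Liver of rats of the same age that received no DEN served as control at 8, 14 and 20 weeks. Each of the 8 groups held 4 rats, which gave 40 libraries from 24 rats.

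Notch receptors are single-pass membrane proteins that are activated by Jagged or Delta-like ligands on a neighbouring cell. Ligand binding leads to cleavage of the receptor by ADAM proteases and γ-secretase, and the freed intracellular domain joins the DNA-binding protein RBPJ to switch on genes of the Hes and Hey families. In liver the pathway is best known for the formation of bile ducts, through Jag1 and Notch2, and for the patterning of blood vessels, where Dll4, Notch1 and Notch4 are made by endothelium. Notch3 and Heyl are known from the mural cells that surround vessels.

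Because RBPJ binds a short core sequence, the 250 bases upstream of the transcription start were searched for TGGGAA and its reverse complement TTCCCA in RefSeq promoters of the rat genome GRCr8. The promoter table held 8 of the 10 genes. The core occurred in 22.1% of the 33469 promoters of this length, and 2.71% held at least 2 copies. Hes1 and Notch4 each held 2 copies, and Notch1, Notch2, Notch3, Jag1, Jag2 and Heyl held none. In Hes1 both copies lay on the strand of the gene, beginning 123 and 109 bases before the start, and in Notch4 both lay on the opposite strand, from 246 and 93 bases before it. The windows of Hes1 (chr11:84213046-84213295, minus strand), Notch4 (chr20:4189073-4189322, minus strand) and Heyl (chr5:140793021-140793270, plus strand) are shown to set a classical target and a receptor, each with 2 copies, beside a target with none. Capitals mark the core on either strand.
Hes1: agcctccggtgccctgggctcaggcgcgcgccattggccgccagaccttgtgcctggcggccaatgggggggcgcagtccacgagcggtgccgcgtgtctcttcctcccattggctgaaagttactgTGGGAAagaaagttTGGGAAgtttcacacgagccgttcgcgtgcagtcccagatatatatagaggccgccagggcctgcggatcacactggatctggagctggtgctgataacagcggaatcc
Notch4: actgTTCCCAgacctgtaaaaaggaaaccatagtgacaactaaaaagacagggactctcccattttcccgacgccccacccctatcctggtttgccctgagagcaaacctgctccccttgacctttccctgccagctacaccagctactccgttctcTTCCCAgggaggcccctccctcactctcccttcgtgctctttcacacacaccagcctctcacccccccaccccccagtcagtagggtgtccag
Heyl: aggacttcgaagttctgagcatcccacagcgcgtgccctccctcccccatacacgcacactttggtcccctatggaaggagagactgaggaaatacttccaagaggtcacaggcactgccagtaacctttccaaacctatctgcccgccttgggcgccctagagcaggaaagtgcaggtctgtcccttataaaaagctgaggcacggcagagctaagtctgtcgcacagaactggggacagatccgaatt
These are matches of letters, and binding was not measured.

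Between 20528515 and 39355849 read pairs were counted per library, except for NT liver of rat H26 at 20 weeks with 160622633. Levels are given as CPM, counts per 1000000 counted pairs after scaling by trimmed means (TMM), which do not correct for gene length, so they were compared between samples and never between genes. The rarest gene was Hey1, with 2 to 102 counts per library, and each of the other 8 members analysed had at least 26. For tumors the value of a rat was the mean of its 2 nodules. A gene was called when its log2 fold change was at least 0.5 in size and its Benjamini-Hochberg adjusted p in edgeR's quasi-likelihood test was at most 0.05 (4 rats per group). Some DEN-treated rats are numbered F and the rest H, while every control is numbered H. Each DEN group held F rats (2 of 4 at 8 weeks, 1 of 4 later), so the letter and DEN cannot be fully told apart, and values among H rats alone are given where a named gene lost its call. At 14 and 20 weeks these are the values without the 1 F rat. The nodules of rat F06 stood apart in the share of pairs outside exons, with 34.5% in nodule 1, which was also the smallest library, and 28.2% in nodule 2, against 21.5% to 26.3% in the other 38 libraries. Without this rat the 5 calls in nodules at 14 weeks were still made.

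With DEN, calls fell on the receptors Notch3, Notch4 and Notch2, the ligands Jag1 and Dll4 and the target Heyl, and on neither Notch1, Hes1 nor Hey1. Against no DEN liver of the same age, 2 of 8 genes tested were called in NT liver at 8 weeks (Notch3 and Notch4), 3 of 9 at 14 weeks (Notch3, Notch4 and Jag1) and 3 of 9 at 20 weeks (Notch4, Jag1 and Dll4), all higher with DEN. Among all genes tested, the calls made up 21.7%, 32.6% and 18.1% in the same comparisons, of which 16.5%, 22.8% and 14.3% were higher and 5.21%, 9.85% and 3.82% lower. In nodules 5 of 9 genes were called at 14 weeks, 4 of them higher (Notch3, Notch4, Jag1 and Heyl) and Notch2 lower. At 20 weeks 6 of 9 were called, with Dll4 added to those higher and Notch2 again lower. The share over all genes was 39.1% at 14 weeks (23.9% higher, 15.2% lower) and 38.8% at 20 weeks (23.6% higher, 15.2% lower). The median log2 fold change of the genes tested was 0.30, 0.34 and 0.35 in NT liver at 8, 14 and 20 weeks and 0.50 and 0.71 in nodules at 14 and 20 weeks, against medians over all genes between -0.01 and 0.02. NT liver and nodules were compared with the same control rats, so the results at one time point are not independent.

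**Figure D1:**
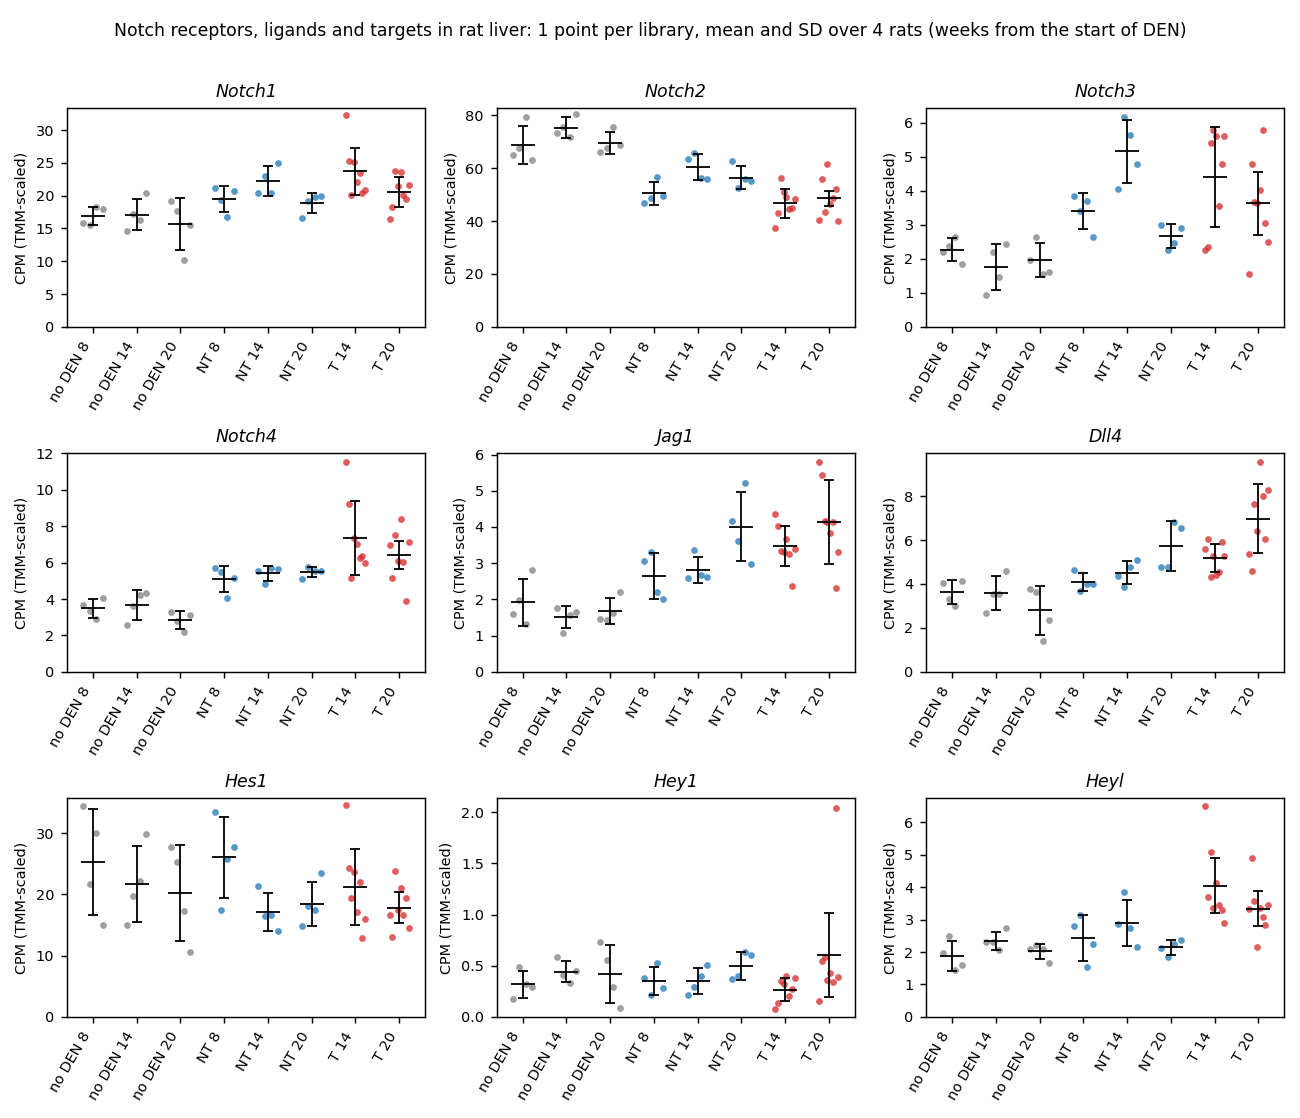
Level in CPM (vertical axes, each from 0) of the 9 Notch pathway genes in the 8 groups, with weeks from the start of DEN on the horizontal axis. Each point is 1 library (grey no DEN, blue NT, red nodule), and bars give the mean and SD over 4 rats. Notch2 lies lower and Notch4 higher with DEN at every time, Jag1 overlaps with its controls in NT liver at 8 weeks and Notch3 in NT liver at 20 weeks, and 1 nodule stands at 2.04 CPM for Hey1.

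Notch4, a receptor made mainly by endothelium, was called higher in all 5 comparisons of DEN-treated with no DEN liver. In no DEN liver, with rats in the order of their numbers here and throughout (F before H), it measured 3.65, 3.34, 2.88 and 4.06 CPM at 8 weeks, 2.55, 3.59, 4.22 and 4.34 at 14 weeks, and 3.28, 2.82, 2.20 and 3.12 at 20 weeks. In NT liver it measured 5.73, 5.47, 4.08 and 5.15 CPM at 8 weeks, 4.82 to 5.69 at 14 weeks and 5.11 to 5.78 at 20 weeks. Every NT sample thus lay above every no DEN sample of its time point. The log2 fold change was 0.56 (SE 0.15, edgeR, Benjamini-Hochberg adjusted p = 0.0167) at 8 weeks, 0.58 (SE 0.16, adjusted p = 0.0118) at 14 weeks and 0.95 (SE 0.15, adjusted p = 0.00163) at 20 weeks. Nodules held 5.17 to 11.6 CPM at 14 weeks (median 6.69) and 3.89 to 8.42 at 20 weeks (median 6.53). The rat means of the nodules did not overlap with the controls, and the rise was 0.97 (SE 0.23, edgeR adjusted p = 0.00717) and 1.13 (SE 0.16, adjusted p = 0.00041). The call in NT liver was lost at 8 weeks without rat F09 (0.51, adjusted p = 0.0513) or H07 (0.48, adjusted p = 0.0545) and among H rats alone (0.43, adjusted p = 0.125). At 14 weeks it fell under the minimum fold without the control H09 (0.43, adjusted p = 0.019).

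Notch3, the receptor of vascular mural cells, showed its highest levels at 14 weeks, the end of dosing, although its change in response between times was not called in edgeR. No DEN liver held 2.19, 2.37, 2.64 and 1.84 CPM at 8 weeks, 0.948, 2.19, 1.47 and 2.43 at 14 weeks, and 1.96, 2.65, 1.57 and 1.62 at 20 weeks. NT liver held 3.85, 3.40, 3.69 and 2.65 CPM at 8 weeks, 4.06, 6.17, 5.63 and 4.77 at 14 weeks, and 3.00, 2.26, 2.46 and 2.89 at 20 weeks. NT and no DEN samples were apart at 8 and 14 weeks and overlapped at 20 weeks. The log2 fold change was 0.60 (SE 0.18, edgeR, Benjamini-Hochberg adjusted p = 0.0249) at 8 weeks, 1.57 (SE 0.26, adjusted p = 0.000558) at 14 weeks and 0.46 (SE 0.21, adjusted p = 0.129, not called) at 20 weeks. The call at 8 weeks was lost without F09 (0.53, adjusted p = 0.0689) or without the control H05, H06 or H08 (0.50 to 0.61, adjusted p of 0.0506 to 0.0638), among H rats alone (0.51, adjusted p = 0.118) and with all 8 groups in the fit (0.60, adjusted p = 0.078). In nodules at 14 weeks both nodules of rat F06 were low (2.26 and 2.33 CPM) and the other nodules lay between 3.54 and 5.77 CPM, so the rat means overlapped with the controls. Notch3 was nevertheless called in nodules at 14 weeks (log2 fold change 1.29, SE 0.35, edgeR adjusted p = 0.0132) and at 20 weeks (0.91, SE 0.24, adjusted p = 0.0102). At 20 weeks the call was lost with nodule 1 of each rat alone (0.60, adjusted p = 0.131).

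Notch2, a receptor known from the branching of bile ducts, was the gene that moved the other way. It measured 65.1, 67.5, 79.2 and 63.0 CPM in no DEN liver at 8 weeks, 71.8 to 80.5 at 14 weeks and 65.9 to 75.7 at 20 weeks. NT liver held 46.7, 48.7, 56.8 and 49.5 CPM at 8 weeks, 56.0 to 65.7 at 14 weeks and 52.4 to 62.6 at 20 weeks, below every control at each time. These differences had adjusted p-values under the threshold but were smaller than the minimum fold: -0.44 (SE 0.10, edgeR, Benjamini-Hochberg adjusted p = 0.00605) at 8 weeks, -0.30 (SE 0.07, adjusted p = 0.00537) at 14 weeks and -0.29 (SE 0.08, adjusted p = 0.023) at 20 weeks. Without rat H17 the value at 8 weeks passed the minimum fold (-0.51, adjusted p = 0.00157). Nodules held 37.2 to 56.2 CPM at 14 weeks (median 46.6) and 39.9 to 61.7 at 20 weeks (median 47.7), also below every control. Here Notch2 was called, with -0.71 (SE 0.10, edgeR adjusted p = 0.000335) and -0.53 (SE 0.09, adjusted p = 0.000958). The value at 20 weeks dropped under the minimum fold without the control H15 (-0.49), without rat H28 (-0.48) and with nodule 2 alone (-0.42, adjusted p = 0.024).

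Notch1, a receptor made by several cell types with endothelium among them, was not called in any comparison. It averaged 16.9 ± 1.39, 17.1 ± 2.42 and 15.7 ± 3.93 CPM (SD, n = 4) in no DEN liver at 8, 14 and 20 weeks. It averaged 19.5 ± 1.99, 22.2 ± 2.25 and 18.9 ± 1.57 CPM in NT liver, and 23.7 ± 3.53 and 20.6 ± 2.29 CPM in nodules at 14 and 20 weeks. At 14 weeks its adjusted p was under the threshold in NT liver (0.40, SE 0.11, edgeR, Benjamini-Hochberg adjusted p = 0.00981) and in nodules (0.44, SE 0.14, adjusted p = 0.0239), with a change smaller than the minimum fold. Every NT sample and every rat mean of nodules lay above every control at that time. In nodules the change passed the minimum fold without the control H12 (0.52, adjusted p = 0.0155) or rat H23 (0.52, adjusted p = 0.0162).

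**Figure D2:**
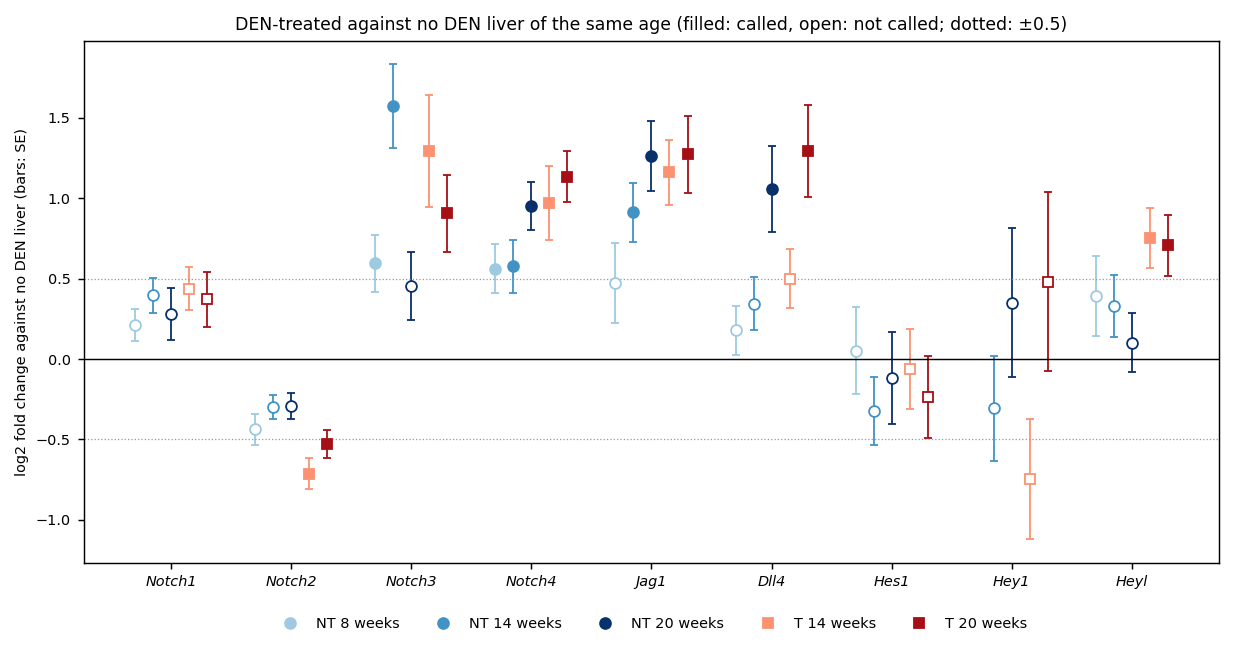
Log2 fold change against no DEN liver of the same age (vertical axis, bars SE) for each of the 9 genes in NT liver (circles) and nodules (squares), with filled symbols for calls. Notch3 peaks at 1.57 in NT liver at 14 weeks, Notch2 is negative throughout, and Hes1 and Hey1 have no call.

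Jag1, the ligand whose loss in people leaves too few bile ducts, was called in 4 of the 5 comparisons. No DEN liver held 1.59, 1.98, 1.32 and 2.80 CPM at 8 weeks, 1.75, 1.07, 1.58 and 1.64 at 14 weeks, and 1.47, 1.44, 1.61 and 2.19 at 20 weeks. NT liver held 3.06, 3.31, 2.21 and 2.0 CPM at 8 weeks, 2.58, 3.36, 2.68 and 2.62 at 14 weeks, and 4.17, 3.62, 5.23 and 2.98 at 20 weeks. The groups overlapped at 8 weeks (log2 fold change 0.47, SE 0.25, edgeR, Benjamini-Hochberg adjusted p = 0.164) and were apart afterwards. At 8 weeks the value of Jag1 depended on single rats, with 0.71 (adjusted p = 0.0482) without the control H08 and 0.16 (adjusted p = 0.723) among H rats alone. The rise was 0.91 (SE 0.18, edgeR adjusted p = 0.00166) at 14 weeks and 1.26 (SE 0.22, adjusted p = 0.00255) at 20 weeks. Nodules held 2.37 to 4.36 CPM at 14 weeks and 2.32 to 5.80 at 20 weeks, each above every control. Their log2 fold changes were 1.16 (SE 0.20, adjusted p = 0.00141) and 1.27 (SE 0.24, adjusted p = 0.0017). These 4 calls held without any 1 rat and among H rats alone.

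Dll4, the ligand of endothelial tip cells, was called at 20 weeks, after DEN had been stopped. Its change in response between times was not called. At 8, 14 and 20 weeks no DEN liver averaged 3.63, 3.60 and 2.80 CPM and NT liver 4.08, 4.52 and 5.73 CPM. No DEN liver held 3.77, 3.64, 1.42 and 2.37 CPM at 20 weeks, NT liver 4.77, 4.76, 6.81 and 6.57, and nodules 4.58 to 9.55 (median 7.02). All DEN-treated samples lay above all controls, of which H15 and H16 were the lowest. The log2 fold change was 1.06 (SE 0.27, edgeR, Benjamini-Hochberg adjusted p = 0.0154) in NT liver and 1.29 (SE 0.29, adjusted p = 0.00401) in nodules. Without the control H16 the call in NT liver was lost (0.95, adjusted p = 0.0571). At 8 and 14 weeks the groups overlapped, with 0.18 (SE 0.15, adjusted p = 0.38) and 0.34 (SE 0.17, adjusted p = 0.103) in NT liver. In nodules at 14 weeks the value of 0.50 (SE 0.18, adjusted p = 0.0461) stood just under the minimum fold before rounding, and it passed with RLE scaling, without a filter on low counts, with all 8 groups in the fit, with nodule 2 alone, with each nodule as its own value, and without the control H12 (0.63) or rat H22 (0.58).

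Hes1, a classical target with 2 copies of the core sequence in its promoter window, was called nowhere. It averaged 25.3 ± 8.64, 21.7 ± 6.23 and 20.2 ± 7.84 CPM (SD, n = 4) in no DEN liver at 8, 14 and 20 weeks. NT liver averaged 26.1 ± 6.64, 17.1 ± 3.11 and 18.4 ± 3.64 CPM, and nodules 21.2 ± 6.20 and 17.8 ± 2.49 CPM. The controls alone spanned 10.5 to 34.4 CPM, and all groups overlapped. Log2 fold changes ran from -0.32 (SE 0.21, edgeR, Benjamini-Hochberg adjusted p = 0.22) in NT liver at 14 weeks to 0.05 (SE 0.27, adjusted p = 0.9) at 8 weeks.

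Heyl, a target known from vascular smooth muscle, was called in nodules only. Its difference between nodules and NT liver was not called in the main test, which left out the pairing by rat. It was called at 20 weeks when nodules were paired with the NT liver of the same rat, as given below. No DEN liver held 2.30, 2.31, 2.06 and 2.73 CPM at 14 weeks and 2.11, 2.21, 2.10 and 1.67 at 20 weeks. NT liver held 2.86, 3.86, 2.75 and 2.15 CPM at 14 weeks and 2.14, 1.84, 2.24 and 2.37 at 20 weeks, overlapping with the controls. Nodules held 2.90 to 6.50 CPM at 14 weeks (median 3.57) and 2.16 to 4.92 at 20 weeks (median 3.34). Rat means of nodules lay above every control, and the log2 fold change was 0.75 (SE 0.19, edgeR, Benjamini-Hochberg adjusted p = 0.00869) at 14 weeks and 0.71 (SE 0.19, adjusted p = 0.0107) at 20 weeks. With nodule 2 of each rat alone the value at 14 weeks fell to 0.49 (adjusted p = 0.0206), under the minimum fold. In NT liver the change was 0.39 (SE 0.25, adjusted p = 0.241), 0.33 (SE 0.19, adjusted p = 0.173) and 0.10 (SE 0.18, adjusted p = 0.707) at 8, 14 and 20 weeks.

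Hey1, a target known from endothelium, was too rare to be tested at 8 weeks and was called nowhere. Its group means ran from 0.267 to 0.605 CPM. The highest of these, for nodules at 20 weeks, rested on nodule 1 of rat H28 with 66 counts (2.04 CPM), while the other 7 nodules held 0.153 to 0.583 CPM. At this depth the log2 fold changes of 0.35 (SE 0.46) in NT liver and 0.48 (SE 0.56) in nodules at 20 weeks were within their errors. At 14 weeks the values were negative, at -0.31 (SE 0.33) in NT liver and -0.75 (SE 0.37, edgeR, Benjamini-Hochberg adjusted p = 0.123) in nodules, where rat F06 held 2 and 4 counts and the value without it was -0.48 (adjusted p = 0.162).

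Whether nodules differed from the liver around them was asked by comparing T with NT samples, which came from the same rats. The main edgeR quasi-likelihood test did not use this pairing. It called 0 of 9 genes at 14 weeks and 0 of 9 at 20 weeks, beside 0% of all genes at both times. At an unadjusted p under 0.05 there were 1348 genes at 14 weeks and 2767 at 20 weeks, and DESeq2 called 24 and 908 genes. In simulated data for the comparison at 20 weeks with 200 changed genes, DESeq2 made 22 false calls and edgeR 11. With nodules and NT liver paired by rat, edgeR made 7 false calls. The simulation held no effect of the rat and the same scatter for all genes. The largest differences at 14 weeks were Heyl at 0.45 (SE 0.22, edgeR, Benjamini-Hochberg adjusted p = 0.445), Notch4 at 0.42 (SE 0.19, adjusted p = 0.43), Hey1 at -0.41 (SE 0.40, adjusted p = 0.63) and Notch2 at -0.38 (SE 0.11, adjusted p = 0.404). At 20 weeks Heyl stood at 0.61 (SE 0.17, edgeR adjusted p = 0.107), and it was called by DESeq2 (0.61, adjusted p = 0.0203), with all 8 groups in the fit (0.64, adjusted p = 0.0307) and with the rat as a block that pairs nodules with their own NT liver (0.60, adjusted p = 0.00776). With that block 1693 genes were called at 20 weeks and 0 at 14 weeks.

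Against its own NT liver, Heyl was higher in 7 of 8 nodules at 14 weeks and in 8 of 8 at 20 weeks, with medians of 0.36 and 0.48 on the log2 scale (0.5 CPM added to both values). The exception at 14 weeks was nodule 2 of rat H21. Notch4 was higher in 8 of 8 and 7 of 8 nodules (medians 0.22 and 0.23), with nodule 1 of rat H28 as the exception. Notch2 was lower in 8 of 8 and 7 of 8 (medians -0.32 and -0.22), with nodule 2 of rat H25 above its NT liver. Hes1 was higher in 7 of 8 nodules at 14 weeks and in 3 of 8 at 20 weeks. The 2 nodules of a rat share 1 NT sample, so the nodules are not independent values. Counted by rat, both nodules were higher for Heyl in 3 of 4 rats at 14 weeks and 4 of 4 at 20 weeks. For Notch4 this held in 4 of 4 and 3 of 4, and for Hes1 in 3 of 4 and 0 of 4. Both nodules were lower for Notch2 in 4 of 4 and 3 of 4 rats.

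**Figure D3:**
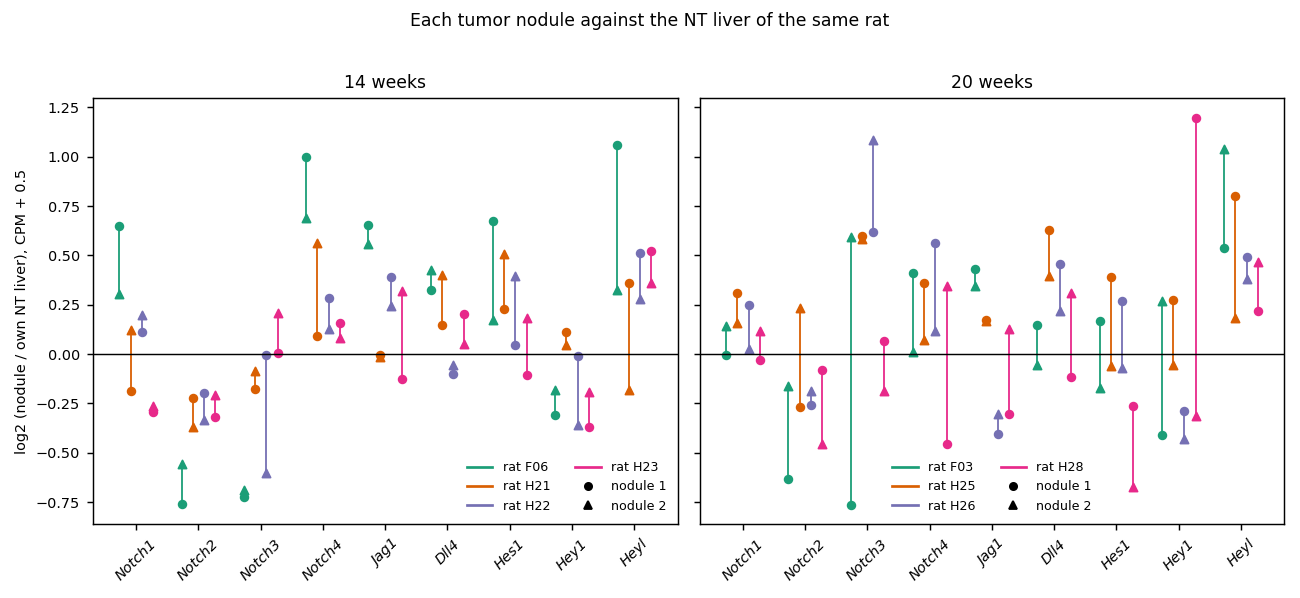
Log2 ratio of each nodule to the NT liver of the same rat (vertical axis, 0.5 CPM added to both) for the 9 genes at 14 and 20 weeks. Circles and triangles are nodules 1 and 2, joined by a line per rat. Heyl lies above 0 in 15 of 16 nodules, which are 2 per rat with a shared NT value. The lines are longest for Hey1 in rat H28 and Notch3 in rat F03 at 20 weeks.

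Notch3 in rat F03 at 20 weeks was 1.57 CPM in nodule 1 and 4.79 CPM in nodule 2, a ratio of 3.06, with 3.00 CPM in the NT liver between them. At 20 weeks the SD within rats of Notch3 was 0.52 on the log2 scale and the SD of the rat means 0.33, while at 14 weeks they were 0.23 and 0.51. By the largest ratio of the nodules of a rat, Notch1 and Dll4 were the most even, never above 1.28 for Notch1 and 1.37 for Dll4. By the median ratio Jag1 was more even than Notch1, at 1.10 against 1.15 at 14 weeks and 1.08 against 1.11 at 20 weeks. Nodule 1 of rat F06 was the highest nodule at 14 weeks for Notch1 (32.3 CPM), Notch4 (11.6), Jag1 (4.36), Hes1 (34.5) and Heyl (6.50), and the lowest for Notch2 (37.2), Notch3 (2.26) and Hey1 (0.0778). For Dll4 the highest was its nodule 2 (6.04 CPM). These are the nodules with the largest shares of pairs outside exons, and the part of that share in their levels was not tested.

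Whether the response to DEN changed with time was tested as an interaction of treatment and time in edgeR at an adjusted p of at most 0.05. No member was called, 0 of 9 in each of the 3 tests, beside 8.96% of all genes for NT liver at 14 against 8 weeks, 0.738% for NT liver at 20 against 14 weeks and 0.0862% for nodules at 20 against 14 weeks. DESeq2 called 1 member in each of the tests of NT liver and 0 in nodules. The shares above are edgeR's, so they are no background for the counts of DESeq2. The member called by DESeq2 was Notch3 in both tests, and Notch3 and Dll4 were singled out here after the values were seen. In simulated data for NT liver at 20 against 14 weeks with 200 changed genes, DESeq2 made 18 false calls and edgeR 2. The response of Notch3 in NT liver was 0.97 larger (SE 0.33, edgeR, Benjamini-Hochberg adjusted p = 0.0705) at 14 than at 8 weeks, with 0.97 (adjusted p = 0.0321) in DESeq2, and differed by -1.11 (SE 0.34, adjusted p = 0.127) at 20 against 14 weeks, with -1.13 (adjusted p = 0.0389) in DESeq2. Without rat F06 or the control H12 the first reached an edgeR adjusted p of 0.0331 and 0.0403. The response of Dll4 was 0.72 (SE 0.33, edgeR adjusted p = 0.282) larger at 20 than at 14 weeks in NT liver and 0.78 (SE 0.36, adjusted p = 1) larger in nodules. The counts of genes over the whole table at an unadjusted p under 0.05 were 2980, 1912 and 378.

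In rats without DEN, 0 of 9 genes were called from 8 to 14 weeks or from 14 to 20 weeks, beside 0% of all genes in edgeR's test. There were 1038 and 670 genes at an unadjusted p under 0.05, and DESeq2 called 20 and 19 genes, none of them a member. DESeq2 was not simulated for these comparisons. Its 18 to 24 false calls in the 3 comparisons that were simulated arose in data with changed genes built in. They cannot be set against the 20 and 19 genes called here, so how many of these are false was not tested.

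Ordered by group mean, the 3 no DEN groups held the lowest places for Notch1, Notch3, Notch4, Jag1 and Dll4 and the highest 3 for Notch2. In the order of Notch4 the gap between the highest no DEN mean (3.68 CPM, 14 weeks) and the lowest DEN mean (5.11 CPM, NT at 8 weeks) was larger than the SD of either group, as was the gap for Notch2 between NT at 14 weeks (60.3 CPM) and no DEN at 8 weeks (68.7 CPM). For Notch3 the same held between no DEN liver at 8 weeks (2.26 CPM) and NT liver at 20 weeks (2.66 CPM). For Jag1 it held between no DEN (1.92 CPM) and NT liver (2.64 CPM) at 8 weeks, which were not called apart. For Dll4 the gap between no DEN (3.63 CPM) and NT liver (4.08 CPM) at 8 weeks was not larger than both SDs. The pairs of Notch4, Notch2 and Notch3 cross time points and were not tested against each other. Samples overlapped in each of these pairs and in the pair of Jag1. Neighbouring groups of Notch1, Hes1, Hey1 and Heyl in their orders never differed by more than the larger SD of the pair.

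Other genes of the pathway were read from a list of 52, of which 45 had a row and 37 were tested in NT liver and 38 in nodules. Of those tested, 4 were called higher and 1 lower in NT liver at 8 weeks, 5 and 2 at 14 weeks, and 4 and 1 at 20 weeks, beside 21.7%, 32.6% and 18.1% of all genes called in either direction. In nodules 5 were higher and 5 lower at 14 weeks, and 6 and 6 at 20 weeks, beside 39.1% and 38.8% of all genes. The median log2 fold change of the list lay between -0.20 and -0.08 in these 5 comparisons.

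Outside the members, Nrarp, a small protein that limits Notch activity and is itself a target, was called higher in all 5 comparisons. It averaged 1.06 ± 0.35, 0.887 ± 0.204 and 0.746 ± 0.465 CPM (SD, n = 4) in no DEN liver at 8, 14 and 20 weeks, 1.72 ± 0.26, 1.71 ± 0.28 and 1.69 ± 0.48 CPM in NT liver, and 2.56 ± 0.69 and 2.03 ± 0.59 CPM in nodules. The log2 fold change of Nrarp ran from 0.71 (SE 0.24, edgeR, Benjamini-Hochberg adjusted p = 0.0428) in NT liver at 8 weeks to 1.5 (SE 0.25, adjusted p = 0.00112) in nodules at 14 weeks. In NT liver the call was lost at 8 weeks without any 1 of F09, F10, H05, H06, H07 and H18 and among H rats alone (0.62, adjusted p = 0.179), as it was without a filter on low counts (adjusted p = 0.05, above the threshold before rounding) and with all 8 groups in the fit (0.72, adjusted p = 0.0777), and at 20 weeks without any 1 of H15, H16, H26 and H28. Hes6, a Hes relative that counters Hes1, fell in NT liver and nodules at 14 and 20 weeks, by 1.12 (SE 0.20, adjusted p = 0.00138) to 1.52 (SE 0.23, adjusted p = 0.000636) on the log2 scale, from 207 ± 41.6 to 93.7 ± 23.8 CPM in NT liver at 14 weeks.

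Among regulators, Numbl, a relative of the Notch inhibitor Numb, showed the largest change, from 0.167 ± 0.037 CPM in no DEN liver to 0.969 ± 0.317 CPM in NT liver and 1.56 ± 0.58 CPM in nodules at 14 weeks (SD, n = 4). Its log2 fold change was 2.53 (SE 0.35, edgeR, Benjamini-Hochberg adjusted p = 0.000184) and 3.18 (SE 0.36, adjusted p = 0.000126) there, and 1.81 (SE 0.37) and 2.91 (SE 0.37) in NT liver and nodules at 20 weeks. Numbl had few counts in no DEN liver, 3 to 6 counts per library at 14 and 20 weeks against 16 to 123 with DEN, so the size of its fold change is imprecise. It passed the filter on low counts only through the DEN-treated samples and was not tested at 8 weeks. Its calls and its place as the largest change thus depend on the groups where it is high. Ctbp2, a corepressor, was called higher in all 5 comparisons, by 0.62 to 1.07. The Fringe enzymes Lfng and Mfng, which add sugars to the receptors and alter their response to ligands, were called higher in 3 comparisons each. Lfng lost its call in NT liver at 8 weeks without any 1 of F09, H06, H07, H08 and H18 (0.43 to 0.57), at 14 weeks without F06, H09 or H10 (0.45 to 0.66), and in nodules at 20 weeks without any 1 rat but the control H13 (0.44 to 0.67), with nodule 1 alone (0.26) or with each nodule as its own value (0.60). Mfng lost its call in nodules at 14 weeks without any 1 of the 4 controls (0.66 to 0.88) or with nodule 1 alone (0.84), at 20 weeks without any 1 rat but H13 and H28 (0.55 to 0.87) or with 1 nodule of each rat alone (0.86 and 0.75), and that in NT liver at 8 weeks among H rats alone (0.60). Ctbp2 lost its call at 8 weeks without H06 (0.50) or H18 (0.55), and in NT liver at 20 weeks without any 1 rat but H13 (0.46 to 0.70), with RLE scaling (adjusted p = 0.0547) and without a filter on low counts (adjusted p = 0.0526). Psen2, a catalytic subunit of γ-secretase, was called lower in NT liver at 8 weeks (-0.54, SE 0.09, adjusted p = 0.0016, under the minimum fold at -0.49 without H18 and, before rounding, at -0.50 among H rats alone) and in nodules at both times, and the corepressor Ncor1 in nodules at both times (-0.66, SE 0.11, adjusted p = 0.000888, at 14 weeks). The ubiquitin ligases Itch and Mib1 were lower in nodules at 20 weeks, by 0.81 and 0.63 in size, and Mib1 was not called with all 8 groups in the fit (-0.61, adjusted p = 0.118) or with nodule 2 alone (-0.42, adjusted p = 0.183). The calls of Numbl, Hes6, Ncor1 and Itch held without any 1 rat.

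**Figure D4:**
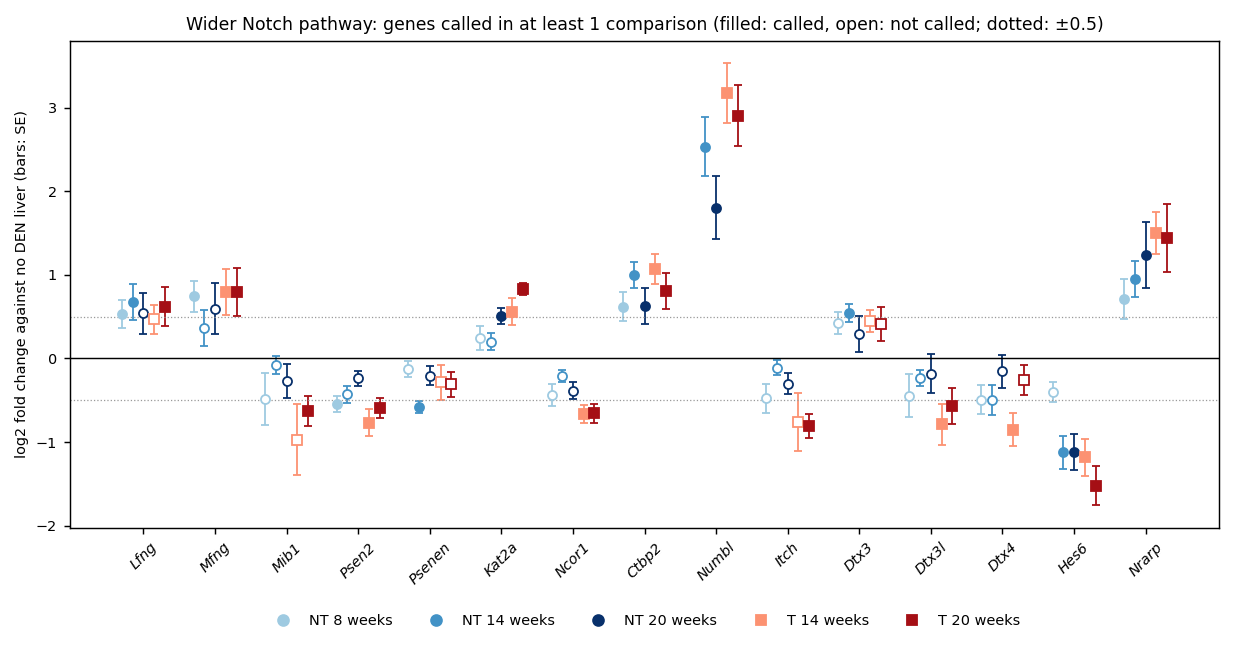
Log2 fold change against no DEN liver (vertical axis, bars SE) of the 15 other pathway genes called in at least 1 of 5 comparisons, in NT liver (circles) and nodules (squares), filled where called. Numbl reaches 3.18 in nodules at 14 weeks, Hes6 is lowest at -1.52 in nodules at 20 weeks, and Nrarp and Ctbp2 are filled in all 5 comparisons.

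Whole tissue was sequenced, so more cells of a type and more RNA per cell cannot be told apart. The summed level of 11 endothelial markers was 85.1 to 205 CPM in no DEN liver and 221 to 312 CPM in DEN-treated samples, with 9 of 11 markers called higher in each of the 5 comparisons. In the 4 no DEN rats at 20 weeks this sum was 205, 153, 85.1 and 108 CPM, lowest in H15 and H16, the same rats that held the least Dll4. The 10 mural and stellate markers summed to 75.2 to 110 CPM in no DEN liver, 93.8 to 179 CPM in NT liver and 114 to 207 CPM in nodules. At 14 weeks, where Notch3 was highest, 7 of 9 tested mural and stellate markers were called higher and 1 lower in NT liver, and in nodules 6 of 10 were higher. In NT liver 7 of 9 were higher at 8 weeks and 5 of 9 at 20 weeks, and in nodules at 20 weeks 6 of 10. The 9 bile duct markers summed to 45.1 to 57.7 CPM in no DEN liver, 56.9 to 115 CPM in NT liver and 98.9 to 206 CPM in nodules, with 5 of 8 tested called higher in NT liver at 8 weeks and 7 of 8 in each of the other 4 comparisons, and 1 lower in nodules at 20 weeks. Leukocyte markers were called higher for 8 of 10, 5 of 9 and 4 of 9 tested in NT liver at 8, 14 and 20 weeks and for 6 and 5 of 10 in nodules at 14 and 20 weeks, with 0 lower. Of 5 cycling cell markers, 3 were called higher in NT liver at 20 weeks and 5 in each of the other 4 comparisons. Hepatocyte markers were called lower for 1 to 7 of 10, with 1 called higher at 14 and 20 weeks. No marker was at 0 in all samples of a group, and the 10 hepatocyte markers summed to 173731 to 348632 CPM. The part of these markers in the changes of the Notch genes was not tested.

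Across the 32 values of 1 rat and tissue each, which share the shift between groups and, at 14 and 20 weeks, the rats, the genes with the most similar pattern among 11596 were listed for each member by Pearson's r of log2 CPM. Notch4 was closest to Sox17 (r = 0.95), Crocc (0.94) and Rasip1 (0.94), of which Sox17 and Rasip1 are known from endothelium. Dll4 was closest to Flt1, a VEGF receptor (0.90), Oit3 (0.89) and Myo7a (0.88), and Notch1 to Nos3, the endothelial nitric oxide synthase (0.87), Pianp (0.86) and Slc25a27 (0.86). After each group's mean was taken off, r was 0.81 for Notch4 with Sox17, 0.77 for Dll4 with Flt1, 0.89 for Dll4 with Oit3 and 0.83 for Notch1 with Nos3. For the 3 genes closest to Notch3 it was 0.50 to 0.55 and for those closest to Jag1 0.46 to 0.56, and for those of the other members 0.61 to 0.89. In the same way, r with the mean of the endothelial markers was 0.79 for Dll4, 0.63 for Notch1, 0.49 for Notch4 and 0.22 for Hey1. With mural and stellate markers it was 0.53 for Notch3 and 0.53 for Heyl, and with bile duct markers 0.04 for Jag1 and 0.10 for Notch2. Notch2 was closest to Nfx1 (0.93), Dsc2 (0.92) and Mtmr3 (0.92), Notch3 to Rab32 (0.86), Dmbt1 (0.86) and Tspan9 (0.86), and Jag1 to Derl3 (0.87), Bmp4 (0.87) and Klf6 (0.86). Heyl was closest to Sncg (0.86), Tpm1 (0.82) and Spef1 (0.81). Hes1 and Hey1 had weaker neighbours over the 32 values. Hes1 was closest to LOC100361444 (0.77), Spata2L (0.73) and Sgk1 (0.73), and Hey1 to Nxn (0.71), Thra (0.63) and Abcf2 (0.62). After each group's mean was taken off, theirs were not weaker than those of Notch3 and Jag1.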

How the data were processed

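Counts of 40 rat liver libraries (24 rats) were used as deposited by the authors, 1 file per library, with whole-number counts of read pairs per gene and no normalization. The authors made strand-specific libraries of polyadenylated RNA, aligned them to rn6 with STAR 2.7.1a and counted them with HTSeq on the reverse strand, dropping pairs that matched several places, so genes with close copies are undercounted. The version of the annotation was not given in the sources used here. Lines that name no gene were left out: pairs outside exons (21.5% to 34.5%), pairs aligned to several places (7.96% to 16.3%) and ambiguous pairs (0.816% to 1.56%), each as a share of all pairs listed. Groups and rats came from the sample labels. Counts of a rat's nodules were added, low genes removed with filterByExpr, and the 2 groups of a comparison fitted with edgeR 4.0.16 (TMM, robust quasi-likelihood F test) in R 4.3.3, adjusted over all genes tested. Interaction tests used the 4 groups involved. The named genes were the 10 members, a pathway list of 52, marker lists, and the 3 genes closest to each member. Members and lists were chosen with earlier results of these data known. Pairing comes from the labels, which give NT liver and nodules the same rat: their deviations from group means correlated at 0.37 to 0.54 over 11596 genes in 8 rats. Any 2 libraries of a group differed by at least 12.9 times sampling noise (chi-square per degree of freedom). No molecular identifiers were used, so counts are not independent molecules. Alternatives were DESeq2 1.42.0, RLE scaling, no filter, all 8 groups in the fit, other thresholds, each rat left out, H rats alone, single nodules and the rat as a block. The tests were checked on simulated data with 200 changed genes: edgeR made 2 to 15 false calls in 3 comparisons and DESeq2 18 to 24.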

Additional observations from a re-analysis of the deposited data

Results flagged for a closer look

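Of 72 groups of libraries (9 genes in 8 groups), 3 had a highest library whose gap to the next exceeded Dixon's 95% value, where chance alone flags about 1 group in 20. Hey1 stood at 2.04 CPM in nodule 1 of rat H28 at 20 weeks, against a median of 0.390 in the other 7 nodules. Jag1 stood at 3.36 CPM in NT liver of rat H21 at 14 weeks, against a median of 2.62 in the other 3 rats. Notch1 stood at 32.3 CPM in nodule 1 of rat F06 at 14 weeks, against a median of 22.1 in the other 7 nodules. That library had the largest share of pairs outside exons (34.5%) and the fewest counted pairs (20528515) of the 40, and the part of these in its level was not tested.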

How the results depend on the processing

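Of 1761 alternative values for single genes (the members and the other pathway genes where called, and in interactions Notch3 and Dll4), 1570 kept their direction and side of the threshold, 147 lost a call, 24 gained one and 20 changed sign, none of the last with an adjusted p of at most 0.05. Of 58 calls of single genes, 23 were lost under at least 1 alternative other than the stricter threshold, and none changed sign. The number of members called moved from 2 to 1 (Notch3 lost) in NT liver at 8 weeks with all 8 groups in the fit and to 0 among H rats alone. At a log2 fold change of 1 and an adjusted p of 0.01 the 5 counts against no DEN liver became 0, 1, 1, 1 and 3, and without a minimum fold the count for NT liver at 14 weeks was 5. These thresholds also move the calls among all genes, and those shares are not given here, so these counts have no background. Leaving out each rat gave 0 to 3 members in NT liver at 8 weeks, 2 to 3 at 14 and at 20 weeks, 5 to 7 in nodules at 14 weeks and 5 to 6 at 20 weeks. For nodules against NT liver at 20 weeks, 1 member was called (Heyl) with DESeq2, all 8 groups in the fit or the rat as replicate block, in place of 0. That replicate block called 1693 genes where the unpaired test called 0, and changed no other call of a member. For the change of response in NT liver DESeq2 gave 1 member (Notch3) at 14 against 8 weeks and 1 at 20 against 14 weeks, and leaving out each rat gave 0 to 1 and 0. Sign changes, all of uncalled values, were as follows. Among H rats alone nodules against NT liver gave -0.063 for Notch1 at 14 weeks and -0.14 for Jag1 at 20 weeks. With nodule 1 alone at 20 weeks this comparison gave -0.031 for Jag1 and 0.11 for Hes1, and with nodule 2 alone -0.31 for Hey1. Leaving out each rat in the same comparison gave -0.063 to 0.19 for Notch1 at 14 weeks, and at 20 weeks -0.14 to 0.21 for Jag1, -0.18 to 0.075 for Hes1 and -0.27 to 0.48 for Hey1. Against no DEN liver it gave for Hes1 -0.14 to 0.23 (NT, 8 weeks), -0.37 to 0.035 (NT, 20 weeks) and -0.23 to 0.12 (nodules, 14 weeks). For Hey1 it gave -0.048 to 0.76 (NT) and -0.023 to 0.91 (nodules) and for Heyl -0.016 to 0.17 (NT) at 20 weeks. The cause of these shifts was not tested. With 4 rats per group small changes could be missed, and Hey1 is limited by its counts.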
